A study of Homo sapiens with 7 samples.

Results

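Open chromatin that lay at the end of 1 protein-coding gene and was called in each of 7 ATAC-seq libraries was described in neurons made from the human mesencephalic line LUHMES, an established cell line. The starting point was the shortest list of accessible regions, that of the library vehicle 7, which held 32828 intervals on chromosomes 1 to 22 and X. Of these, 17462 (53.2%) overlapped a peak by at least 1 bp in each of the other 6 lists and are called common intervals here. The members are the 7365 common intervals that lay within 1000 bp of an end of exactly 1 protein-coding gene, which is 42.2% of the common intervals and 22.4% of the vehicle 7 list. Members were chosen by measured values (presence in all 7 lists) and by position, so their presence in every library is not a result. A further 1608 common intervals lay at ends of 2 or more protein-coding genes, with up to 23 genes at 1 interval, and 8489 lay at none.

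The cells had been differentiated for 6 days and carry the labels dopaminergic neurons, mid brain and WT in both groups. The stressed group received antimycin A at 25 µM, which blocks respiratory complex III, with oligomycin at 10 µM, which blocks the mitochondrial ATP synthase, for 8 hours, and gave 4 libraries from differentiations 6, 7, 8 and 9. The vehicle group received DMSO for 8 hours and gave 3 libraries from differentiations 6, 7 and 8. All libraries come from 1 cell line, and within a group the labels tell them apart by differentiation number only. Each number was taken here as a separate differentiation, so the errors below describe differentiations of that line. The study set out to map open chromatin with and without mitochondrial stress.

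Transposase-accessible DNA at a gene start marks the nucleosome-depleted stretch where transcription factors and RNA polymerase assemble. Many such promoters lie in CpG islands and stay open in most cell types, whether the gene is strongly or weakly transcribed. Genes with divergent neighbours share such a stretch, while others have it to themselves.

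Members marked 6744 of 19974 protein-coding genes (33.8%). A single member lay at 6148 genes, 2 members at 572, 3 at 23 and 4 at 1 gene. Another 2849 genes lay only at intervals shared with other genes, and 10381 had no common interval at an end. Most members sat at a transcription start: 5878 (79.8%) lay at the start of their gene, 173 (2.35%) at its far end and 37 (0.502%) within reach of both, while the gene table gave no strand for the remaining 1277 (17.3%). The interval covered the gene end itself in 5346 members (72.6%). An end of a long non-coding RNA gene lay within 1000 bp of 1883 members (25.6%), against 8.46% of the intervals at 2 or more protein-coding ends and 12% of those at none. A single protein-coding gene therefore did not mean a single gene of any kind.

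The promoters below are shown because they belong to members that the results turn on. ARRDC4, DCBLD2, OSBP, FAR1 and HSPA13 stood near the top of every library, and TMEM9 and PCK2 were among the members with the greatest difference in rank between treatments. They are examples: ZNF248, SP4, EMC2, SUCO and HMGCS1 also stood near the top of every library and are not shown. Each run is the 250 bases before the listed transcript start, 5′ to 3′ on the gene's strand, from RefSeq on GRCh38.p14. The positions are chr15:97960453-97960702 (plus strand) for ARRDC4, chr3:98901696-98901945 (minus strand) for DCBLD2, chr11:59615775-59616024 (minus strand) for OSBP and chr11:13668418-13668667 (plus strand) for FAR1. They are chr21:14383147-14383396 (minus strand) for HSPA13, chr1:201171559-201171808 (minus strand) for TMEM9 and chr14:24094061-24094310 (plus strand) for PCK2. Capitals mark CCAAT or its reverse complement ATTGG, the core of the box bound by the factor NF-Y, and TGACGTCA, the palindrome bound by factors of the CREB and ATF family.
ARRDC4: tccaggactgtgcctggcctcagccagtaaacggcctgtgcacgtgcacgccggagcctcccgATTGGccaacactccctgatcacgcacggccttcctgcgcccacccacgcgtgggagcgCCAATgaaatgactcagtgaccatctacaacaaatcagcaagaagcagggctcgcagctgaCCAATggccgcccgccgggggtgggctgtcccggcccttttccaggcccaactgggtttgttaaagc
DCBLD2: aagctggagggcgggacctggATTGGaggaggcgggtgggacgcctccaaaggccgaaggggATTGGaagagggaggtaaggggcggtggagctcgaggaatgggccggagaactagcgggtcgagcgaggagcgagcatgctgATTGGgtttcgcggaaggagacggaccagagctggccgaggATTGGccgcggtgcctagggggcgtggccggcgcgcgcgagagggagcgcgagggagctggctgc
OSBP: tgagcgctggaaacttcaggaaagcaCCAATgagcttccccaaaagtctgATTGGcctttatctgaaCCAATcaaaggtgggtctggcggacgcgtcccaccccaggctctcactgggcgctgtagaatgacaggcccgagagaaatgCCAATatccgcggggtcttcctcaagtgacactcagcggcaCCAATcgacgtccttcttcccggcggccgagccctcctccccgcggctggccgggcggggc
FAR1: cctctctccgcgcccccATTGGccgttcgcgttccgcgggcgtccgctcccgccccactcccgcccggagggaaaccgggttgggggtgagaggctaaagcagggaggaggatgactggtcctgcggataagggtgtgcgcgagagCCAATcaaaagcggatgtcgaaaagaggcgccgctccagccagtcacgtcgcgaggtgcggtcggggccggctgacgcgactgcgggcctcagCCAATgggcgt
HSPA13: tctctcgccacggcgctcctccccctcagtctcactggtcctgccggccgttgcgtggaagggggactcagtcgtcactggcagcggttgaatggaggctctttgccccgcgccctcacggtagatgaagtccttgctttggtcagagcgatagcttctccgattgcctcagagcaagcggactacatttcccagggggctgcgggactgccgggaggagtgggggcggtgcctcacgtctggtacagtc
TMEM9: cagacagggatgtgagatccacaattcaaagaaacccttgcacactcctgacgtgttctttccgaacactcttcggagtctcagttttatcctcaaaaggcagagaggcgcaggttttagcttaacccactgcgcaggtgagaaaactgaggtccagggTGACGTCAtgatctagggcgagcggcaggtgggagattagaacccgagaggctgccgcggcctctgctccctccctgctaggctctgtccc
PCK2: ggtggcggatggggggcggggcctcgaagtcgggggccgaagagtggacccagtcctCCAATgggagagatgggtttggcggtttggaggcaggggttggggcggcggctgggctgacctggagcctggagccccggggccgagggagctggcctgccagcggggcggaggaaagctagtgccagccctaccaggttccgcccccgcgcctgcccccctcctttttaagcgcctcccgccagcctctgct

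OSBP held 5 matches of the CCAAT pentamer, DCBLD2 held 4, ARRDC4 and FAR1 held 3 each, PCK2 held 1 and HSPA13 held 0. Such numbers are not typical of strong members, since 20.0% of the promoters of the 100 highest-ranked members at a start held at least 3. In DCBLD2 the first bases of the matches lay 229, 188, 106 and 65 bases before the start, all written as ATTGG, with spacings of 41, 82 and 41 bases. The TGACGTCA palindrome occurred once in TMEM9, with its first base 91 bases before the start. That match lay outside the TMEM9 member interval, which ends at 201171620. The PCK2 run also lay outside its member interval, which begins at 24094432. Both intervals are those of vehicle 7. In stressed 7 the peak was 1752 bp wide at TMEM9 and 2498 bp at PCK2, and whether the peaks of other libraries cover these positions was not tested. These are matches of letters, not measured binding.

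Promoter sequence could be read for 15812 of the 19974 protein-coding genes and for 5592 of the genes marked by members. For the motif shares, 1 promoter was taken per gene, the first listed, and both strands were searched. The 5452 genes with a member at a start had CpG-rich promoters, with a median observed-to-expected CpG ratio of 0.85 and a median GC content of 65.7%. All genes with a listed promoter had 0.763 and 62.7%, and the 7768 genes with no common interval at an end had 0.487 and 59.0%. The GC box GGGCGG, a site of SP-family factors, was present in 72.9% of the promoters of members at a start, 58.5% of all promoters and 45.1% of those at no common interval. TATAAA, the TATA box core, ran the other way with 5.26%, 9.64% and 14.2%. The ETS-family site CCGGAAGT was in 7.58% of the members' promoters, 6.2% of all promoters and 13.7% of those of genes found only at shared intervals. Other motifs were present in few members' promoters: NRF1's CGCATGCG in 3.76% (2.88% of all), the YY1 site AAGATGGCG in 3.78% (2.74%), TCTCGCGA in 2.66% (1.74%), TGACGTCA in 3.58% (2.59%), the E-box CACGTG in 10.2% (8.87%), the AP-1 site TGANTCA in 3.72% (5.76%) and TGATGNAA, a site of the C/EBP-ATF type, in 1.61% (2.54%). Matches of 2 motifs overlapped in 181 promoters (1.14%).

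To place a region within its library, every common interval was given the strongest peak that overlapped it and ranked by that peak's −log10 p. In vehicle 7, the source of the intervals, that peak was the interval itself. In the other 6 libraries it could be a wider peak or the strongest of several. This asymmetry falls on the vehicle side of each comparison of treatments, and its part in the differences was not tested. The rank is printed as a percentile among the 17462 common intervals, from 0 for the weakest to 100 for the strongest. Peak lists were made separately for each library and differ in length, with 188516, 248900, 55533 and 53063 intervals in stressed 6 to 9 and 53398, 32828 and 159902 in vehicle 6 to 8. Read depth is unknown from these lists, and values are therefore compared only as ranks. The members took 48 to 335 distinct −log10 p values in a library, fewest in vehicle 7 and most in stressed 7, so a step between neighbouring percentiles is coarse in the short lists. In libraries other than vehicle 7, 12.7% to 19.9% of members shared their peak with another common interval and so share its rank and width.

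Members ranked above the middle of every library. Their median percentile was 60.9, 63.3, 61.9 and 61.1 in stressed 6 to 9 and 60.4, 56.6 and 57.5 in vehicle 6 to 8. The 4 stressed libraries all lay above the 3 vehicle libraries, with 61.8 ± 1.1 (SD, n = 4) against 58.2 ± 1.99 (SD, n = 3). This order is narrow, since stressed 6 (60.9) and vehicle 6 (60.4) nearly met. In vehicle 6 the members took 73 distinct −log10 p values, with up to 445 members tied at 1 value. That gap is therefore finer than the steps of the vehicle 6 percentiles. The difference of 3.62 percentile points gave p = 0.0286 in an exact permutation test (two-sided, 35 assignments of the labels), the smallest this design allows. It was 1.31 points with a window of 500 bp (exact permutation p = 0.314) and 2.7 points when each peak had to reach a −log10 q of 5 (exact permutation p = 0.229).

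Intervals at no gene end lay lower in each library, with medians of 37.8, 33.2, 36.6 and 34.7 in the stressed and 44.5, 40.3 and 41.2 in the vehicle libraries. Members exceeded them by 21.9 points on average (SD 5.75 over 7 libraries, higher in 7 of 7, exact sign-flip permutation p = 0.0156, two-sided, the smallest possible). The gap was 23.2, 30.2, 25.3 and 26.3 points in stressed 6 to 9 and 16.0, 16.4 and 16.3 points in vehicle 6 to 8, so it was wider in each stressed library than in any vehicle library. Because the percentiles of all common intervals are shared out within a library, a higher place of members and a lower place of the others are 1 observation. Compared with intervals at 2 or more gene ends, members had a mean difference of −3.33 points (SD 2.12, lower in 6 of 7 libraries and equal in vehicle 6, exact sign-flip permutation p = 0.0312, two-sided). This gap was not found with a window of 2500 bp, where members stood 0.0573 points higher (exact permutation p = 1).

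**Figure D1:**
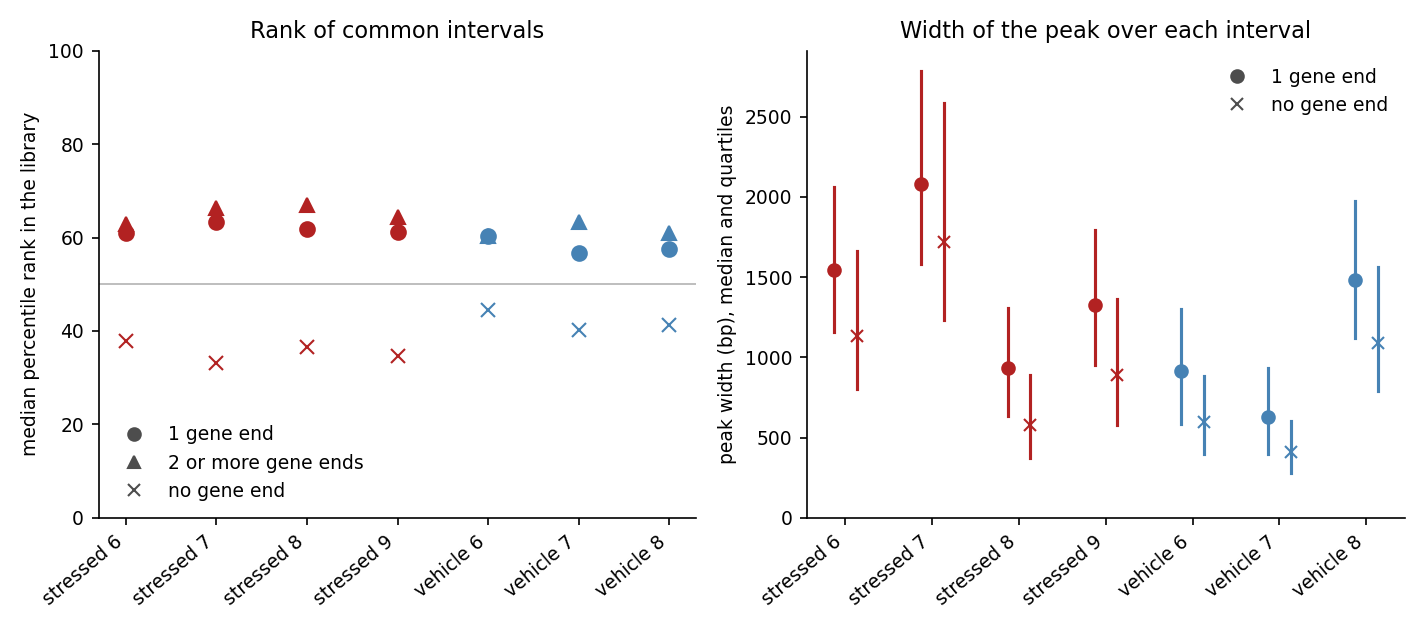
Left, median percentile rank per library of common intervals at 1 gene end (circles), at 2 or more (triangles) and at none (crosses), with the grey line at 50. Right, median width in bp of the peak over each interval with bars from the lower to the upper quartile, for 1 gene end (circles) and none (crosses). Stressed libraries are red and vehicle libraries blue. Members lie between 56.6 and 63.3 and intervals at no gene end between 33.2 and 44.5.

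Members at a far end were weaker than members at a start. Their median percentile was 35.2, 35, 36.6 and 29.6 in stressed 6 to 9 and 31.7, 30.9 and 37.7 in vehicle 6 to 8, against 62.9, 65.0, 61.9, 64.4, 60.4, 56.6 and 60.2 at starts. These medians were at or below those of common intervals at no gene end in each library except stressed 7. Exceptions of high rank were the far-end member of the predicted gene LOC124903573 at chr15:89087832-89088706, between 92.0 and 98.9 in all libraries, and that of SDR42E2 at chr16:22190190-22191490, between 88.0 and 97.8. The peak over the far end of HDGF, which encodes a nuclear growth factor, lay between 70.4 and 89.5.

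Absolute width followed the library. The median peak over a member was 1546, 2079, 934 and 1327 bp wide in stressed 6 to 9 and 912, 627 and 1483 bp in vehicle 6 to 8. Divided by the median over all common intervals of the same library, this was 1.14, 1.09, 1.22 and 1.18 in the stressed and 1.23, 1.24 and 1.14 in the vehicle libraries. Members were wider than the median common interval in all 7 libraries. The relative width was 1.16 ± 0.0584 (SD, n = 4) under stress and 1.20 ± 0.0595 (SD, n = 3) with vehicle, a difference of −0.0485 that was smaller than either SD (exact permutation p = 0.314, two-sided). It was −0.0247 without stressed 7, −0.0289 without vehicle 7 and −0.0827 without vehicle 8, and missed 0.05 in each. Intervals at no gene end had relative widths of 0.754 to 0.898. At starts and far ends the widths differed too: 633 bp at starts and 389 bp at far ends in vehicle 7, and 1330 and 892 bp in stressed 9.

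When each library was reduced to its 32828 strongest peaks, 6893 members (93.6%) remained in all lists. They numbered 7297, 7346, 7239 and 7303 in stressed 6 to 9 and 7132 and 7242 in vehicle 6 and 8, while vehicle 7 holds all 7365 by construction. The groups overlapped, since stressed 8 held fewer than vehicle 8. The difference of 109 members gave p = 0.133 in an exact permutation test (two-sided, n = 4 and 2, smallest possible 0.0667). It was 54.2 members without vehicle 6, 164 without vehicle 8, 53.5 when peaks had to cover at least 50% of the interval and 195 with −log10 q of at least 5, and missed 0.05 in each.

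The summit of a member's peak lay close to the start. Over 5915 members at a listed start, the median distance from summit to start was 110, 124, 134 and 150 bp in stressed 6 to 9 and 120, 127 and 109 bp in vehicle 6 to 8. The share of summits within 250 bp of the start was 76.9%, 75.7%, 72.3% and 69.4% in the stressed and 74.1%, 72.0% and 76.4% in the vehicle libraries. Summits lay upstream of the start in 66.3%, 55.4%, 62.0% and 52.8% of members under stress and in 65.8%, 62.3% and 67.4% with vehicle. Stressed 7 and stressed 9 had the fewest upstream summits, whereas stressed 6 resembled the vehicle libraries. Peak width did not follow this order, since stressed 6 and vehicle 8 had wide peaks and many upstream summits.

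**Figure D2:**
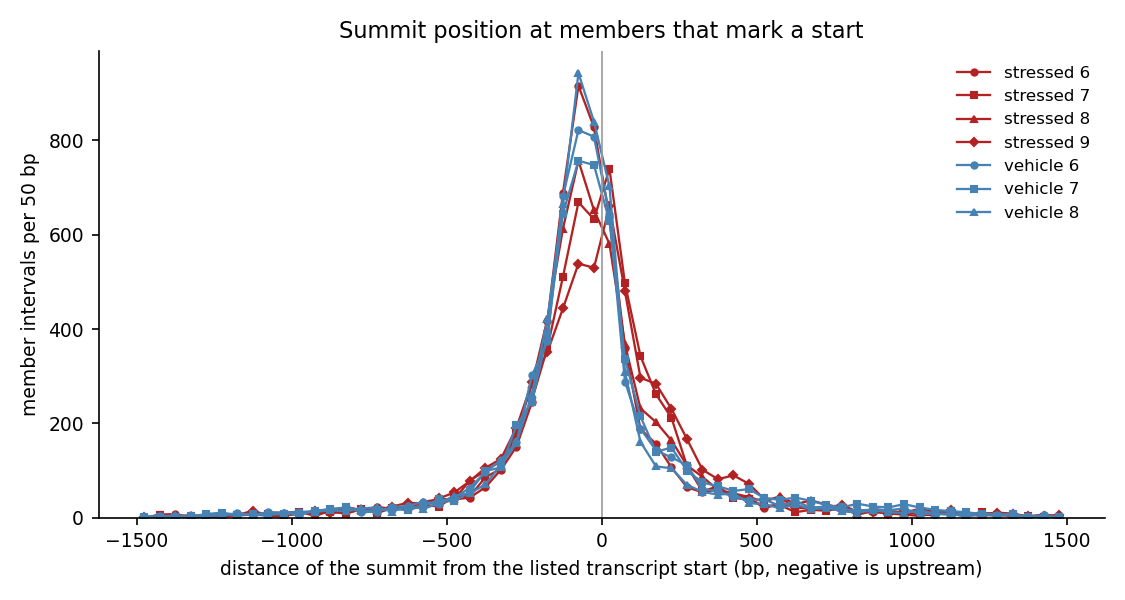
Number of members per 50 bp (vertical axis) by distance of the peak summit from the listed transcript start (horizontal axis, bp, negative upstream), 1 line per library, stressed in red and vehicle in blue. All 7 lines peak within the first 100 bp around the start, and stressed 7 and stressed 9 hold more summits downstream than the others.

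The strongest members were taken by their lowest percentile over the 7 libraries, so their high rank in both treatments is set by that choice. The member at the start of ARRDC4, an alpha-arrestin gene that responds to glucose, at chr15:97960051-97961758, stood at percentiles 99.9, 99.7, 99.7 and 99.7 in stressed 6 to 9 and 99.9, 99.8 and 99.9 in vehicle 6 to 8. That of DCBLD2, a transmembrane receptor of the neuropilin type, at chr3:98901070-98902399, stood at 99.8, 99.6, 99.7, 99.6, 99.7, 99.7 and 99.7. OSBP, which encodes the oxysterol-binding protein that moves lipids between membranes, had 99.8, 99.8, 99.7, 99.5, 99.8, 99.7 and 99.8 at chr11:59614838-59616725. No value in these 3 members fell below 99.5. Behind them came ZNF248 (lowest percentile 99.4), HSPA13, an Hsp70-family gene (99.4), FAR1, which makes fatty alcohols for ether lipids (99.4), SP4, a factor that binds GC boxes (99.3), EMC2 of the endoplasmic reticulum membrane complex (99.2), SUCO (99.2) and HMGCS1, a cholesterol synthesis gene (99.1). These values carry no test.

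Promoters of higher-ranked members held the CCAAT pentamer more often. With members at a start ordered by mean percentile in 4 sets of 1363 genes, from the weakest to the strongest, the share with a match was 31.5%, 36.7%, 39.4% and 50.2%, against 36.3% of all promoters. At least 3 matches were found in 2.27%, 3.67%, 5.36% and 9.39%, against 4.0% of all promoters. In the 100 members of highest mean percentile these shares were 65.0% and 20.0%. The GC box changed less, from 70.1% in the weakest to 74.8% in the strongest set, and the ETS site was at 5.94%, 9.61%, 8.44% and 6.31%. In the 100 highest members the GC box reached 83.0%. A rise over the sets was not particular to CCAAT: TCTCGCGA was at 1.32%, 2.49%, 2.93% and 3.89%, while the AP-1 site fell from 4.62% to 3.01%. That fall did not hold in the 100 highest members, where the AP-1 site was at 8.0%, against 5.76% of all promoters. There TCTCGCGA was at 5.0%, TGATGNAA at 4.0% and the ETS site at 2.0%. Over 4 such sets by width the CCAAT share was 36.0%, 41.6%, 41.8% and 38.4%, with no such order. Median GC content moved slightly the other way over rank, from 66.7% to 65.0%.

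The weakest members lay near the bottom of at least 1 library. SLC16A4, a monocarboxylate transporter gene, stood at percentiles 0.0172, 4.43, 4.46 and 29.6 in stressed 6 to 9 and 11.2, 4.05 and 1.15 in vehicle 6 to 8. PXDN, which encodes a peroxidase of the extracellular matrix, reached at most 7.48, and ITGAM, an integrin gene of myeloid cells marked at its far end, at most 22.1. TLX3, a homeobox gene, and BRF1, a subunit gene of the RNA polymerase III initiation factor, completed the lowest 5. Percentiles in this range rest on few distinct values in the short lists.

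Some members had wide peaks in every library. TRIB1, a pseudokinase gene, had peaks of 4025, 4956, 3652 and 3688 bp in stressed 6 to 9 and 3345, 3368 and 3812 bp in vehicle 6 to 8. PPP3CA, which encodes the catalytic subunit of calcineurin, had 3392, 3854, 3416, 3575, 3419, 3338 and 3727 bp. RAP2B, a small GTPase gene, had 4171, 5320, 3317, 3786, 3430, 3163 and 3225 bp. Each of these 3 was over 3 kb wide even in vehicle 7, where the median member had 627 bp. SGMS1, DNAAF2, NECTIN3, LCORL, TENT5A, CPEB2 and ARHGAP21 followed, with least widths of 2960 bp for SGMS1 to 2479 bp for ARHGAP21. The narrowest members, at 162 bp in vehicle 7, lay at FGF12, PCDH9, NUDT16L1, RABAC1 and HUNK. In the other libraries the peak over the PCDH9 member, a protocadherin gene, was 1391 to 2883 bp wide, so the vehicle 7 interval there is a fragment of a wider region.

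At the 3 genes with the most members, several members lay under 1 wider peak of another library. The 3 members of ACBD5, a peroxisomal gene, lay under 1 peak of 3338 bp in stressed 6 and 4242 bp in stressed 7. KCNQ3, which encodes a subunit of the neuronal M-current potassium channel, had 4 members, of which 3 lay under 1 peak in each library other than vehicle 7. ARMC5 had 2 members at its start, at percentile 94.5 or higher outside vehicle 7, and 1 at its far end, at 4.05 to 36.6. Just inside the 1000 bp limit lay the members of KCNV1 (1000 bp), PNPLA6 (999 bp) and TRPS1 (997 bp). Just outside it were intervals nearest to JAG1 and FAM177A1 (1001 bp each) and GRIK2 (1002 bp), with mean percentiles of 70.3, 92.3 and 51.0.

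Single members were compared between treatments with limma on normal scores of the rank, fitted over all 17462 common intervals with Benjamini-Hochberg adjustment. No member and no common interval (0%) passed an adjusted p of 0.05, and the smallest adjusted p of a member was 0.0953. At an unadjusted p under 0.05, 615 members (8.35%) were called against 13.2% of all common intervals. Of these, 470 (6.38%) were higher under stress and 145 (1.97%) lower, against 5.49% and 7.69% of all. The stressed libraries all lay above the vehicle libraries in 497 members (6.75%), against 5.5% of all common intervals, and all below in 236 (3.2%), against 7.39%. The members' share was near the background among intervals higher under stress and below it among those lower under stress. Without vehicle 8, limma called 4 of 7365 members at an adjusted p of 0.05, at ARID2, DCT, DLX2 and FHOD3, and 18 of 17462 common intervals (0.103%). The median difference in percentile, stressed minus vehicle, was 2.12 over members (quartiles −3.5 and 10.19) and 0.23 over all common intervals.

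The member with the greatest difference upward among those whose groups did not overlap was at the start of TMEM9, which encodes a lysosomal membrane protein (chr1:201170925-201171620). It stood at percentiles 81.6, 76.4, 75.1 and 82.2 in stressed 6 to 9 and 24.6, 4.05 and 51.3 in vehicle 6 to 8. The vehicle libraries were lower and far more spread (26.7 ± 23.7, n = 3) than the stressed (78.8 ± 3.59, n = 4), and limma gave a normal-score difference of 1.60 (SE 0.368, adjusted p = 0.122). PCK2, the mitochondrial phosphoenolpyruvate carboxykinase, at chr14:24094432-24094844, stood at 65.7, 71.5, 56.2 and 73.4 under stress and 38.3, 11.4 and 11.3 with vehicle. The groups did not overlap, with an adjusted limma p of 0.110. NIBAN1, a stress-responsive gene of translation control, had 87.0, 83.0, 61.9 and 90.6 against 44.5, 30.9 and 28.2 at chr1:184973993-184974429, with an adjusted p of 0.110 by limma across all common intervals. STAC3, known from muscle excitation, had 85.1, 74.0, 56.2 and 67.7 against 17.7, 30.9 and 26.3. Over the STAC3 member the peak was 7022, 9285 and 6202 bp wide in stressed 6, 7 and 9 but 244 bp in stressed 8, and 314, 435 and 936 bp with vehicle. DCT, which encodes a melanin synthesis enzyme, had 68.2, 66.9, 66.9 and 82.2 against 11.2, 4.05 and 51.3, and its vehicle 7 interval was 183 bp wide under peaks of 1285 to 1970 bp in the other libraries.

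Downward, KCNQ3 led with the member at the other end of the gene from its 3 neighbouring members. It stood at percentiles 39.0, 30.5, 15.2 and 10.9 in stressed 6 to 9 and 81.9, 86.3 and 72.8 in vehicle 6 to 8. The group means were 23.9 ± 13.1 and 80.3 ± 6.85, and limma gave −1.63 (SE 0.294, adjusted p = 0.0953). The 3 other KCNQ3 members stood at 14.1, 15.7, 15.2 and 24.7 under stress, and their vehicle values of 55.7 (vehicle 6), 4.05 to 21.0 (vehicle 7) and 35.8 (vehicle 8) overlapped them. OR5A2, an olfactory receptor gene, had 28.4, 34.1, 15.2 and 48.9 against 90.3, 88.3 and 71.9 at chr11:59426144-59426731, with an adjusted p of 0.0974 by limma across all common intervals. MICAL3, a gene of actin regulation marked at its far end, had 27.0, 37.8, 29.4 and 14.9 against 60.4, 77.6 and 77.2. FREM1, a gene of the extracellular matrix, had 24.3, 22.5, 22.1 and 19.7 against 74.9, 68.8 and 44.6. POMT2, a gene of protein O-mannosylation marked at its far end, had 16.4, 26.8, 15.2 and 7.48 against 79.8, 30.9 and 74.6, so that vehicle 7 came close to stressed 7.

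**Figure D3:**
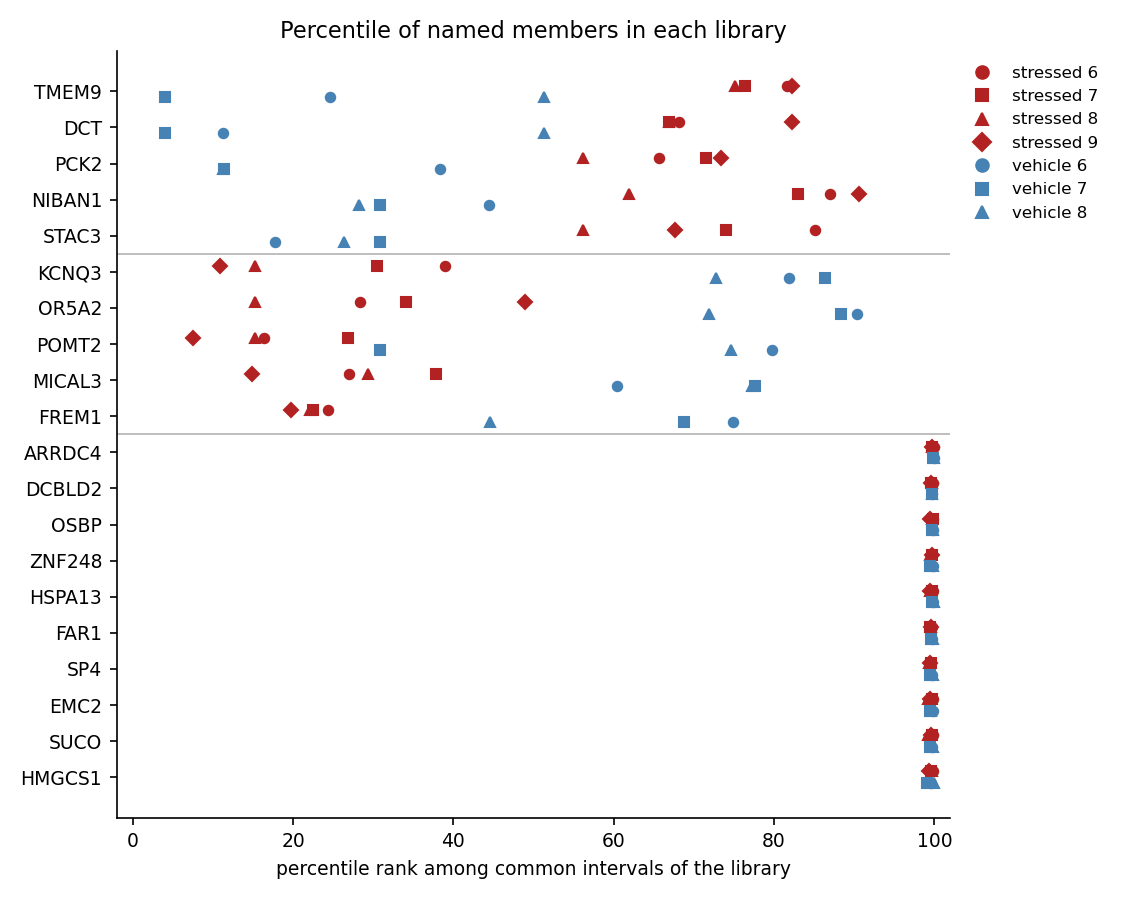
Percentile rank among the common intervals of a library (horizontal axis, 0 weakest, 100 strongest) for 20 named members, 1 row each, with stressed libraries in red above vehicle libraries in blue. In the upper rows each stressed library lies above each vehicle library, in the middle rows below, and the lower rows, from ARRDC4 to HMGCS1, lie above 99 in all 7 libraries.

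For width, the same fit on width ranks gave 0 calls (0%) at an adjusted p of 0.05 among members and among all common intervals, with a smallest adjusted p of 0.616 for a member. At an unadjusted limma p under 0.05, 343 members (4.66%) were called against 6.27% of all. Peaks were wider in rank in each stressed than in any vehicle library at 149 members (2.02%) against 2.34% of all, and narrower at 289 (3.92%) against 3.91%. These shares are close to the background. Without vehicle 8, limma called 13 members at an adjusted p of 0.05, beside 38 of all common intervals (0.218%). Without stressed 8 it called 1 member, at STAC3, beside 2 of all common intervals (0.0115%). PDLIM4, a gene of cytoskeletal adaptors, had widths of 3452, 3963, 909 and 1348 bp under stress and 298, 226 and 1274 bp with vehicle. SLC6A3, the dopamine transporter gene, had 2518, 2702, 919 and 2614 bp against 238, 234 and 1454 bp, while its rank stayed low, between 0.639 and 43.4. In the other direction GFM1, a mitochondrial translation elongation factor gene, had 914, 1420, 558 and 759 bp against 1407, 568 and 1505 bp at ranks of 88.2 to 94.7. Its raw widths overlapped between the groups, and only the width ranks (32.4 or lower under stress, 56.8 or higher with vehicle) were separate. SLC1A5, PLEKHA7 and RABAC1 made up the 5 wider members, and POMT2, HAPSTR2, DGAT2 and ZNF549 the 5 narrower. Raw widths in bp also overlapped between the groups at PDLIM4, SLC6A3 and RABAC1 and at all 5 narrower members, but not at SLC1A5 and PLEKHA7.

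Gene lists were compared by the share of their genes that a member marked, beside 33.8% of all protein-coding genes. Pan-neuronal markers stood highest, with 16 of 19 genes (84.2%); RBFOX3, ELAVL3 and ENO2 had no common interval at an end. STMN2, a tubulin regulator of growing axons, held percentiles 87.0, 90.6, 86.1 and 93.9 in stressed 6 to 9 and 98.7, 91.5 and 94.5 in vehicle 6 to 8. ELAVL4, a neuronal RNA-binding protein gene, was at 14.3 or lower in all 7 libraries. Among dopaminergic markers 8 of 19 genes had a member: CALB1, NR4A2, DRD2, GCH1, EN1, RET, OTX2 and SLC6A3. TH and DDC of dopamine synthesis, SLC18A2, LMX1A, LMX1B, FOXA2, EN2, ALDH1A1 and KCNJ6 had no common interval at an end, so the defining genes of dopamine synthesis are absent among the members. NR4A2, a transcription factor of midbrain dopamine neurons, held 50.2, 65.7, 50 and 64.4 under stress and 60.4, 68.8 and 52.9 with vehicle. Over the 12 members of the dopaminergic list, 8 were higher and 4 lower in mean under stress, with a median difference of 6.61 points and no member without overlap. At an unadjusted limma p under 0.05, 3 of the 12 were higher, beside 6.38% of all members and 5.49% of all common intervals.

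Markers of cells other than the labelled one were seldom marked. Glial markers had 2 of 16 genes, OLIG2 and SLC1A2, with none for GFAP, AQP4, MBP, CX3CR1 or the other 10. Mesenchymal and endothelial markers had 2 of 13, TWIST1 and KDR, neural progenitor markers 3 of 12, VIM, NEUROG2 and SOX2, and markers of other neurons 3 of 13. Over the intervals of a list, the median of the group means was 53.7 under stress and 66.9 with vehicle for glial markers, 52.3 and 44.2 for mesenchymal and endothelial markers, and 55.1 and 34.7 for progenitor markers. It was 40.3 and 46.0 for markers of other neurons, 42.3 and 33.5 for pan-neuronal markers and 41.0 and 29.5 for dopaminergic markers. Over all members it was 60.8 and 56.6, so the pan-neuronal and dopaminergic lists stood lower in rank in both groups. SLC1A2, an astrocytic glutamate transporter gene, held 41.7, 58.9, 36.6 and 24.7 against 86.6, 77.6 and 77.2. OLIG2, an oligodendrocyte lineage factor gene, was higher in mean under stress, with 67.4, 63.3, 88.2 and 48.9 against 68.5, 30.9 and 60.2. VIM, the vimentin gene, had its 2 members at 50 to 71.9 against 21.0 to 50.4. Their part in the other lists was not tested. Gene families that other tissues use were nearly absent, with 5 of 392 olfactory receptors (1.28%) and 4 of 149 keratin and keratin-associated genes (2.68%).

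**Figure D4:**
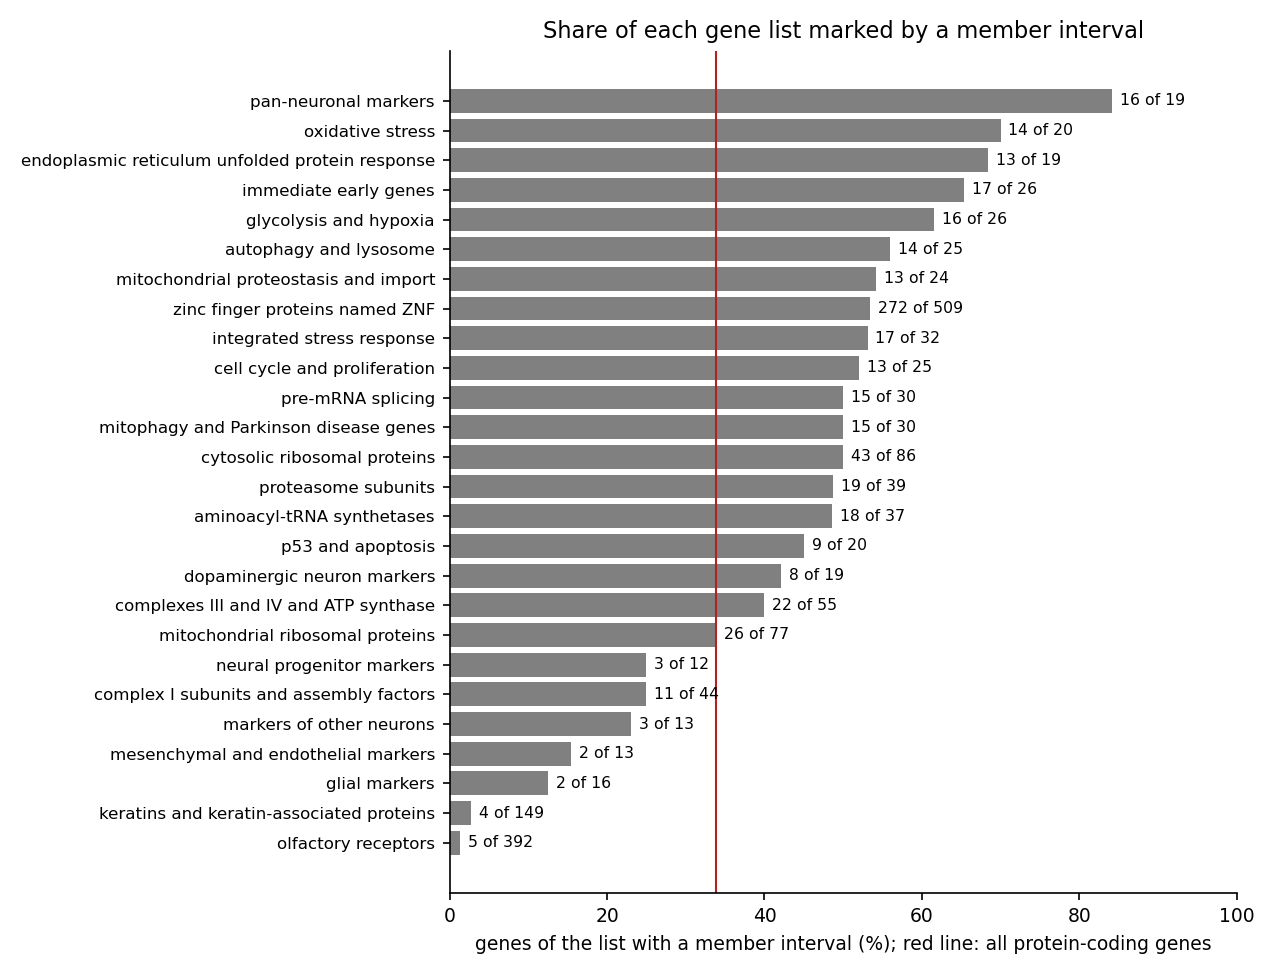
Share of the protein-coding genes of each list that a member marks (horizontal axis, percent; the numbers give genes marked of genes in the list), with the red line at the 33.8% of all protein-coding genes. Pan-neuronal markers reach 84.2% and olfactory receptors 1.28%.

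Stress programs were next compared by the share of their genes with a member. Of the oxidative stress list 14 of 20 genes (70%) had a member, of the endoplasmic reticulum's unfolded protein response 13 of 19 (68.4%), of the immediate early genes 17 of 26 (65.4%), of glycolysis and hypoxia 16 of 26 (61.5%) and of the integrated stress response 17 of 32 (53.1%). Over all 7365 members 4417 had a higher and 2948 a lower mean percentile under stress, and in none of the lists did a member pass the adjusted limma test. Immediate early genes, induced within minutes of a stimulus, had a higher mean at 16 of 17 members, with a median difference of 9.69 points against 2.12 over all members. The groups did not overlap at 2 of the 17, FOSL2 and ARC, both higher under stress and named after their values were seen, beside 6.75% of all members and 5.5% of all common intervals in that direction. KLF4, the highest of this list, held 97.7, 97.9, 98.6 and 93.9 under stress and 97.3, 92.6 and 97.7 with vehicle, and NR4A1, the lowest, reached 23 at most.

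In the integrated stress response, the program downstream of the eIF2α kinases, 13 of 18 members were higher and 5 lower in mean, with a median difference of 7.69 points. The groups did not overlap at 4 members, all higher under stress, at PHGDH, DDIT4, CHAC1 and TRIB3, which were named after their values were seen. Over all common intervals the stressed libraries lay above the vehicle libraries in 5.5%, and over all members in 6.75%. EIF2AK3, which encodes the kinase PERK and ranked highest, held 99.5, 99.7, 97.6 and 99.5 in stressed 6 to 9 and 99.4, 99.4 and 99.8 in vehicle 6 to 8. CHAC1, a glutathione-degrading enzyme gene, held 69.7, 78.5, 66.9 and 70.7 against 38.3, 48.8 and 41.2, and TRIB3, a pseudokinase gene, 74.8, 50.5, 43.4 and 75.9 against 5.75, 40.3 and 4.48. Both were separate between treatments, TRIB3 narrowly, through vehicle 7 and stressed 8. ATF4, the factor at the centre of the program, held 49.0, 40.4, 50 and 19.7 against 24.6, 56.6 and 41.2, with no separation. SESN2, the lowest of the list at its start, held 10.7, 45.3, 36.6 and 24.7 against 11.2, 4.05 and 11.3. ATF3, CEBPB, ASNS, SLC7A11 and 6 further genes of the list lay at no common interval, and 5 genes lay only at shared ones.

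Among glycolysis and hypoxia genes 13 of 18 members were higher under stress in mean and 5 lower, with a median difference of 8.05 points. LDHB, a lactate dehydrogenase gene, ranked highest, at 92.4 to 98.6 under stress and 97.2 to 99.2 with vehicle. VEGFA, the angiogenic growth factor gene, held 40.4, 60.9, 71.3 and 70.7 against 11.2, 21.0 and 31.9, and was named, like GAPDH, after its values were seen. The 2 members of the glycolytic gene GAPDH lay under 1 peak outside vehicle 7 and held 78.1, 81.2, 61.9 and 83.9 under stress and 38.3 and 58.9 in vehicle 6 and 8. In vehicle 7 they were separate peaks, at 56.6 and 11.4. PKM, the pyruvate kinase gene and lowest of the list, held 10.7, 34.1, 36.6 and 53.3 against 11.2, 21.0 and 17.7. In the oxidative stress list the median difference was 0.33 points, and CAT, the catalase gene, was at 91.2 or higher in all libraries. In the unfolded protein response it was 1.85 points, with SEL1L, a gene of protein degradation at the endoplasmic reticulum, at 97.9 or higher and ATF6 at 30.9 or lower.

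Mitochondrial gene groups were marked unevenly. Mitochondrial proteostasis and import had 13 of 24 genes (54.2%) and complexes III and IV with ATP synthase 22 of 55 (40%). Mitochondrial ribosomal proteins had 26 of 77 (33.8%) and complex I 11 of 44 (25.0%). In the last group 24 genes lay only at intervals shared with another gene, and in the mitochondrial ribosomal proteins 28. CHCHD2, a gene of the mitochondrial intermembrane space mutated in some families with Parkinson disease, held 97.1, 94.3, 96.0 and 93.9 under stress and 99.0, 97.2 and 98.6 with vehicle, lower in each stressed library. It was the 1 member of its list separated downward, while 3 (SPG7, DNAJA3 and CHCHD10, named after their values were seen) were separated upward, and 11 of the 13 were higher in mean. Over all common intervals 7.39% were separated downward and 5.5% upward. NDUFB4, the highest of complex I, held 91.3, 86.3, 83.8 and 90.6 against 93.4, 93.7 and 95.1. Of the 11 complex I members 3 were separated downward, NDUFB4 among them, and 1 upward. For complexes III and IV with ATP synthase it was 1 of 23 in each direction, and for mitochondrial ribosomal proteins 0 of 27. Over all members 3.2% were separated downward and 6.75% upward. The median difference over members was 5.51 points for proteostasis and import, 0.83 for complex I, 0.08 for complexes III and IV with ATP synthase and 1.16 for mitochondrial ribosomal proteins. Mitophagy and Parkinson disease genes had 15 of 30 (50%), without PINK1 and SQSTM1, and their median difference was 2.55 points.

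Housekeeping lists and transcription factors came in between. Cytosolic ribosomal proteins had 43 of 86 genes (50%), proteasome subunits 19 of 39 (48.7%), aminoacyl-tRNA synthetases 18 of 37 (48.6%) and splicing factors 15 of 30 (50%). Autophagy and lysosome genes had 14 of 25 (56.0%), cell cycle genes 13 of 25 (52.0%), p53 and apoptosis genes 9 of 20 (45.0%) and zinc finger genes named ZNF 272 of 509 (53.4%). The ZNF members split evenly by treatment, with 142 higher and 143 lower in mean and 10 of 285 members without overlap in each direction, beside 5.5% (above) and 7.39% (below) of all common intervals. Cytosolic ribosomal protein members split 21 to 23, and of these 44 the groups did not overlap at 2 upward and 4 downward. RPS13, the highest, held 93.2 to 95.9 under stress and 96.2 to 98.2 with vehicle. Median differences above the 2.12 points of all members also occurred outside the stress lists described above, and carry no test. In splicing factors the groups did not overlap at 4 of 16 members upward and 1 downward, with a median difference of 5.07 points. In p53 and apoptosis genes they did not overlap at 2 of 11 members, both upward, and the median difference was 12.59 points.

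By chromosome, the share of genes marked ran from 18.0% on chromosome 17 and 18.8% on chromosome 22 to 44.9% on chromosome 4 and 48.1% on chromosome 18. The median difference between treatments was above 0 on each autosome, from 0.53 on chromosome 21 to 5.57 on chromosome 17, and −3.62 on chromosome X. Of the 323 members on X, the stressed libraries lay above the vehicle libraries in 3 (0.929%) and below them in 34 (10.5%). Over all members these shares were 6.75% and 3.2%, and over all common intervals 5.5% and 7.39%. The median percentile of X members was 47.9, 50.5, 43.4 and 53.3 in stressed 6 to 9 and 60.4, 56.6 and 47.9 in vehicle 6 to 8, against 61.9, 63.9, 61.9, 61.1, 55.7, 56.6 and 58.9 for autosomal members. Vehicle 8 lay with the stressed libraries on X, so the groups overlapped. Common X intervals at no gene end showed 27.0, 28.6, 29.4 and 29.6 under stress and 44.5, 40.3 and 33.8 with vehicle. These values are a description, since members of 1 chromosome are not replicates.

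**Figure D5:**
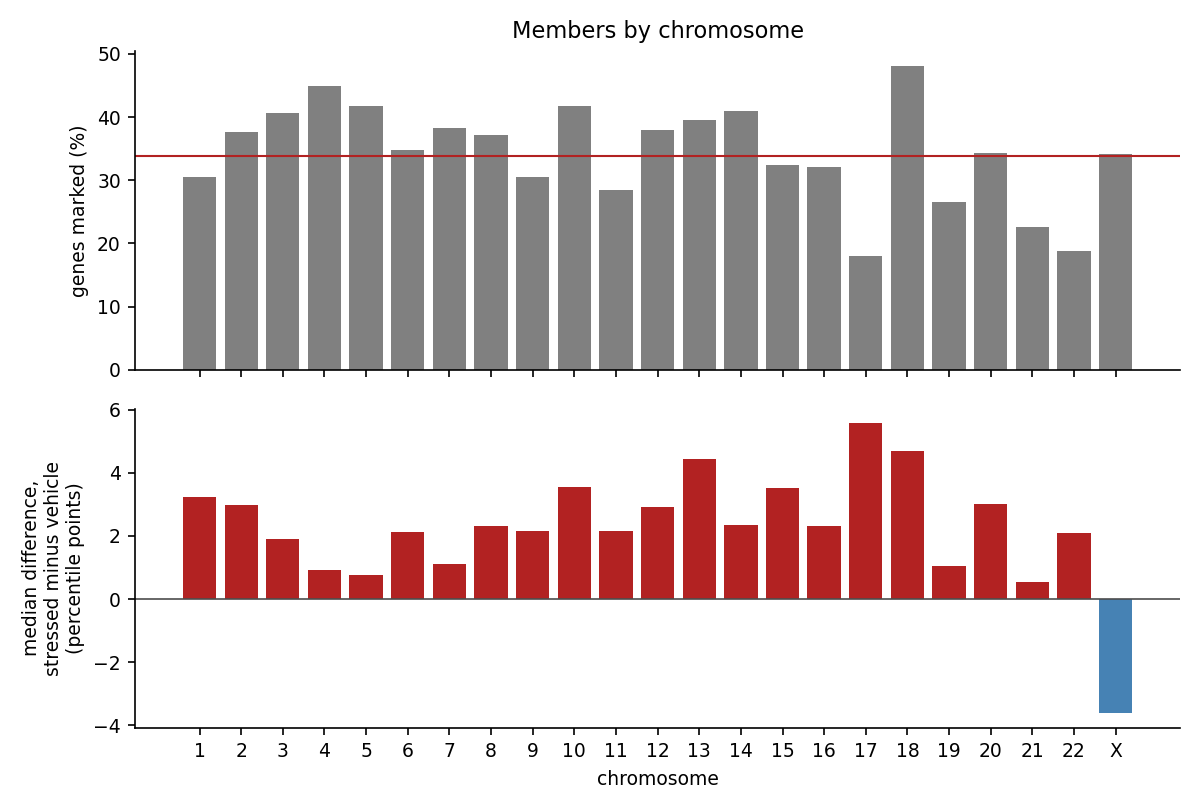
Upper panel, percent of the protein-coding genes of each chromosome that a member marks, with the red line at 33.8%. Lower panel, median over members of the difference in mean percentile, stressed minus vehicle, in percentile points. Chromosome X, at −3.62, is the only chromosome below 0.

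Promoters of members whose groups did not overlap in rank differed in composition by direction. These promoters were counted by gene, 1 each. The upward set had 369 genes with a member whose stressed libraries all lay above the vehicle libraries. It held the CCAAT pentamer in 30.6% and the GC box in 72.6% of promoters, at a median GC content of 67.7%. The downward set, with 194 genes, held them in 48.5% and 58.8%, at 62.8%. Separated members at a start alone numbered 396 upward and 190 downward, so the downward set is not limited to members at a start. The ETS site was in 7.59% and 12.4%, and TGACGTCA in 3.52% and 4.64%. GC content thus moved with the direction of the rank difference, and its part in that difference was not tested.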

How the data were processed

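ATAC-seq measured Tn5-accessible DNA in 4 stressed and 3 vehicle libraries. Peaks had been called with MACS2, 1 library at a time, per the file headers. The submitters' processing notes name FastQC, Bowtie2, Picard and hg38 but no version. Settings of the caller and any shift of reads for Tn5 were not given in the sources used here; such settings change peak width and number. Each deposited list gives a score, a fold enrichment at the summit as a ratio over that library's background, and the −log10 p and −log10 q of each peak, as the authors' caller computed them. The summit is deposited as an offset in bp.

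Only chromosomes 1 to 22 and X were kept. Members were found by overlap of at least 1 bp and a distance of at most 1000 bp to gene ends of RefSeq on GRCh38.p14, and motifs were searched on both strands. Within each library the −log10 p of the strongest overlapping peak was ranked among common intervals, and ranks by fold were identical in order. Per-library medians were compared by exact permutation over libraries, and single intervals with limma 3.58.1 (R 4.3.3) on normal scores, after a check on simulated data. Python 3.11.15, numpy 2.4.6, pandas 2.3.3, scipy 1.17.1 and matplotlib 3.10.9 were used.

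Members and lists were chosen with earlier results of these data known. The rule for named genes took the 5 members of greatest difference per direction, for rank and for width, whose groups did not overlap, since fewer than 5 were called. It also took the 10 highest and 5 lowest members by minimum percentile and by minimum width, the 3 genes with most members, the 3 intervals on each side of the limit, and the highest and lowest of each list. Other members are named as examples.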

Additional observations from a re-analysis of the deposited data

Results flagged for a closer look

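In groups of 4 libraries, 25 sets of values of named members were screened for a library far from the other 3, and 2 were found, where chance gives about 1 in 20. At the DCT member, stressed 9 stood at percentile 82.2 while the other stressed libraries stood at 66.9 to 68.2, a gap of 0.912 of the group's range. At the SLC1A5 member, a neutral amino acid transporter gene, stressed 8 had a width percentile of 12.1 against 69.4 to 80.4 in the other stressed libraries, a gap of 0.839 of the range.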

How the results depend on the processing

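Rank differences between treatments kept their direction in each alternative tried, but not their side of 0.05. From 3.62 points, the members' difference was 1.31 with a window of 500 bp (exact permutation p = 0.314), 2.7 with −log10 q of at least 5 (exact permutation p = 0.229) and 2.84 to 4.74 when each library was left out in turn (exact permutation p = 0.0667 to 0.1, the smallest those designs allow). With the replicate block, over 3 pairs, it was 3.87 (exact permutation p = 0.25, the smallest possible), and the block gave 0 member calls in both limma fits. The labels do not say whether libraries with 1 differentiation number shared a culture. Deviations of same-numbered libraries correlated at −0.1, −0.076 and −0.157, so the libraries were not treated as pairs. Members minus intervals at 2 or more gene ends reversed to 0.0573 with a window of 2500 bp (exact permutation p = 1), was −2.35 with −log10 q of at least 5 (exact permutation p = 0.0625) and −3.89 to −2.78 without single libraries, where p was 0.0625 for 6 of the 7 libraries left out and 0.0312 without vehicle 6 (exact permutation). Members called by limma on rank ran from 0 to 4 without single libraries (4 without vehicle 8, beside 18 of 17462 common intervals) and on width from 0 to 13 (1 without stressed 8, beside 2, and 13 without vehicle 8, beside 38). The cause of these shifts was not tested. The gap to intervals at no gene end kept its side of 0.05 in all 14 alternatives, and the member count stayed within 1.5 times in all 5. Few distinct −log10 p values in the short lists limit the ranks.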
